A study of Mus musculus with 6 samples.

Results

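Collagens are the main structural proteins of the extracellular matrix. The genes described here are all 44 rows, of 18238 in the deposited count table, whose symbol has the form of a collagen alpha chain (Col, a type number, a and a chain number). They were taken by name, and the set was chosen with earlier results of these data known. RNA was sequenced in 6 libraries from mice, labelled as lung cancer, and whether each came from a separate animal is not stated. Artemisinin, an antimalarial drug from sweet wormwood, was the treatment in 3 libraries (artemisinin replicates 1 to 3). The other 3 were of the model without treatment (model replicates 1 to 3). The strain, genotype, age and tissue of the mice, the way the cancer was induced, and the dose and length of treatment are unstated in the labels. The comparison asks which genes change their expression under the drug.

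Each collagen molecule is a triple helix of 3 alpha chains, which may be copies of 1 chain or products of different genes. Fibrillar collagens such as types I, III and V form the load-bearing fibres of the lung interstitium, airways and vessel walls. Collagen IV makes the sheet-like network of basement membranes, with a widespread network of alpha 1 and alpha 2 chains and a second network of alpha 3, alpha 4 and alpha 5 chains that is found in the alveolar basement membrane. Collagen VI forms beaded filaments near cells. FACIT collagens sit on the surface of fibrils, multiplexins (types XV and XVIII) lie in the basement membrane zone, and transmembrane collagens are anchored in the plasma membrane of cells. Collagens VIII and X are short chains that form networks, and collagen VII forms the fibrils that anchor epithelium.

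The libraries held between 25566173 and 34745497 counts, of which collagen chains took 0.280% to 0.430%, and between 40 and 43 of the 44 chains had at least 1 count in each. Levels of 1 gene across libraries are given as normalised CPM, counts per library size after TMM scaling, and levels of different genes are compared as FPKM, which also divides by gene length. Markers of alveolar epithelium, endothelium, fibroblasts and smooth muscle were present in all 6 libraries. Artemisinin replicate 2 stood apart, with 7140 normalised CPM over 9 skeletal muscle markers against 7.65 to 158.0 in the other 5 libraries, and 337.9 over 8 keratinocyte and basal cell markers against 4.35 to 14.8. Artemisinin replicate 1 had the highest sum over 6 club cell markers, 73861 normalised CPM against 8350 to 29424 elsewhere, and also of 8 cardiac muscle markers (1296 against 129.2 to 352.9) and 8 adipocyte markers (446.9 against 61.7 to 101.8). Artemisinin replicate 3 had the highest sum over 9 neutrophil markers, 4842 against 115.2 to 1107. The 9 smooth muscle markers all rose (edgeR adjusted p under 0.05 for each, where 4.47% of all genes were called). Their sums were 1144 to 2004 in the artemisinin libraries and 310.5 to 474.5 in the model. Of 10 alveolar type 2 cell markers 5 fell and 0 rose (median log2 −1.93), and all 10 were lower without overlap (17.3% of all genes). Their sums were 10554 to 27492 and 60049.6 to 86603. Of the 9 neutrophil markers 6 rose and 0 fell (median 4.66), with sums of 775.3 to 4842 and 115.2 to 176.6. The part of these cell types in the collagen values was not tested. In bulk tissue a change in the number of cells of a type and a change in RNA per cell cannot be told apart.

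Several collagen IV genes lie head to head and start next to each other, so the promoter windows of 2 such pairs are shown before their levels. Col4a1 and Col4a2 are on chromosome 8 of GRCm38 (Col4a1 at 11198423 to 11312889 on the minus strand, Col4a2 at 11312805 to 11449287 on the plus strand), and the spans of the 2 genes overlap at their starts. Col4a4 and Col4a3 overlap in the same way on chromosome 1, at 82448419 to 82587034 and 82586921 to 82722059. Col4a6 and Col4a5 lie on the X chromosome with RefSeq start sites 1343 bases apart. The windows run from 250 bases before to 50 bases after a RefSeq start site (build GRCm38.p6), in the direction of each gene. Capitals mark the CCAAT box (CCAAT) and the GC box (GGGCGG), searched on both strands.
Col4a1, chr8:11312777-11313076, minus strand: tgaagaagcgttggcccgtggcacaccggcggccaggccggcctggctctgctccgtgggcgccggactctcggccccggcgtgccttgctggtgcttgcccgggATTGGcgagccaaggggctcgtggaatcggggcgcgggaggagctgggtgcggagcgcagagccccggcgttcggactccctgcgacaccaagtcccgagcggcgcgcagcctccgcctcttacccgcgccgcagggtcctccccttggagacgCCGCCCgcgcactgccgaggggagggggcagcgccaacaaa
Col4a2, chr8:11312555-11312854, plus strand: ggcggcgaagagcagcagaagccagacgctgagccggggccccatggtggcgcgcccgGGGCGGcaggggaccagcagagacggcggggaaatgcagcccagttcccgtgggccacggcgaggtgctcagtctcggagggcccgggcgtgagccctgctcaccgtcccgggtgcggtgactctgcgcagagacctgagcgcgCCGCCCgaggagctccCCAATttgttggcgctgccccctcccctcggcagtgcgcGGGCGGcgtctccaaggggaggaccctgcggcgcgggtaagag
Col4a5, chrX:141475169-141475468, plus strand: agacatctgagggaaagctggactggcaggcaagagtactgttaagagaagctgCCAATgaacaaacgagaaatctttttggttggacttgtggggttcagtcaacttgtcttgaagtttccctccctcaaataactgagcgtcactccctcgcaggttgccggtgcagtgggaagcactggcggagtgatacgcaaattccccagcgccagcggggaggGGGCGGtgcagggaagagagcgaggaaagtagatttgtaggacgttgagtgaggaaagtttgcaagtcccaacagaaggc
Col4a6, chrX:141474027-141474326, minus strand: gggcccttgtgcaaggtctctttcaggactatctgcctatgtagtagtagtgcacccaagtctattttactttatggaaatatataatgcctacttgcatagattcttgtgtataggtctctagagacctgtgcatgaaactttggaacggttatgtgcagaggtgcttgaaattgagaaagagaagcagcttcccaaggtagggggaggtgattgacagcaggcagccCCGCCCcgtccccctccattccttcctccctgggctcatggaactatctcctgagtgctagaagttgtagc
The Col4a1 and Col4a2 windows share 78 bases and are rich in G and C, at 74.0% and 73.7%, with 37 and 33 CG dinucleotides. The Col4a5 and Col4a6 windows share no bases and hold 52.7% and 48.3% G and C, with 11 and 3 CG dinucleotides. Over all 32851 windows of the RefSeq table the median was 52.7%, and over the 38 windows that matched 35 of the collagen chains it was 59.8%. A GC box was present in 23 of these 38 windows (60.5%) and in 35.7% of all windows. A CCAAT box was present in 34.2% and 37.4%, and a TATA box (TATAAA) in 13.2% and 13.6%. These are matches of letters and not measured binding.

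Col4a1 and Col4a2 were the most abundant collagen transcripts in each model library and in the mean over all 6 libraries, but not in every artemisinin library. Col4a1 stood at 107.9 ± 8.22 FPKM in model libraries and 83.2 ± 38.6 in artemisinin libraries (SD, 3 each), followed by Col4a2 at 76.8 ± 2.72 and 64.0 ± 22.6. Next in mean level over all 6 libraries came Col3a1, Col1a2, Col6a1 and Col4a3, and these 6 chains held 64.0% of all collagen FPKM. Col3a1 was the most abundant chain in artemisinin replicate 1, at 56.7 FPKM against 38.8 for Col4a1, and in artemisinin replicate 2, at 115.6 against 102.0. Col3a1 was above Col1a2 in each of the 6 libraries. In the model they stood at 46.0 ± 4.83 and 32.3 ± 3.32 FPKM, and with artemisinin at 72.9 ± 37.3 and 50.8 ± 8.84. They were closest in artemisinin replicate 3, at 46.5 and 42.8. The order of Col1a2 and Col6a1 was less firm, as Col6a1 was the higher in model replicate 2 (37.1 against 34.8). At the other end, 8 chains had too few counts to be tested, with a highest group mean of 0.772 normalised CPM. The plot of levels by chain shows that the chains of each structural class span a wide range.

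**Figure D1:**
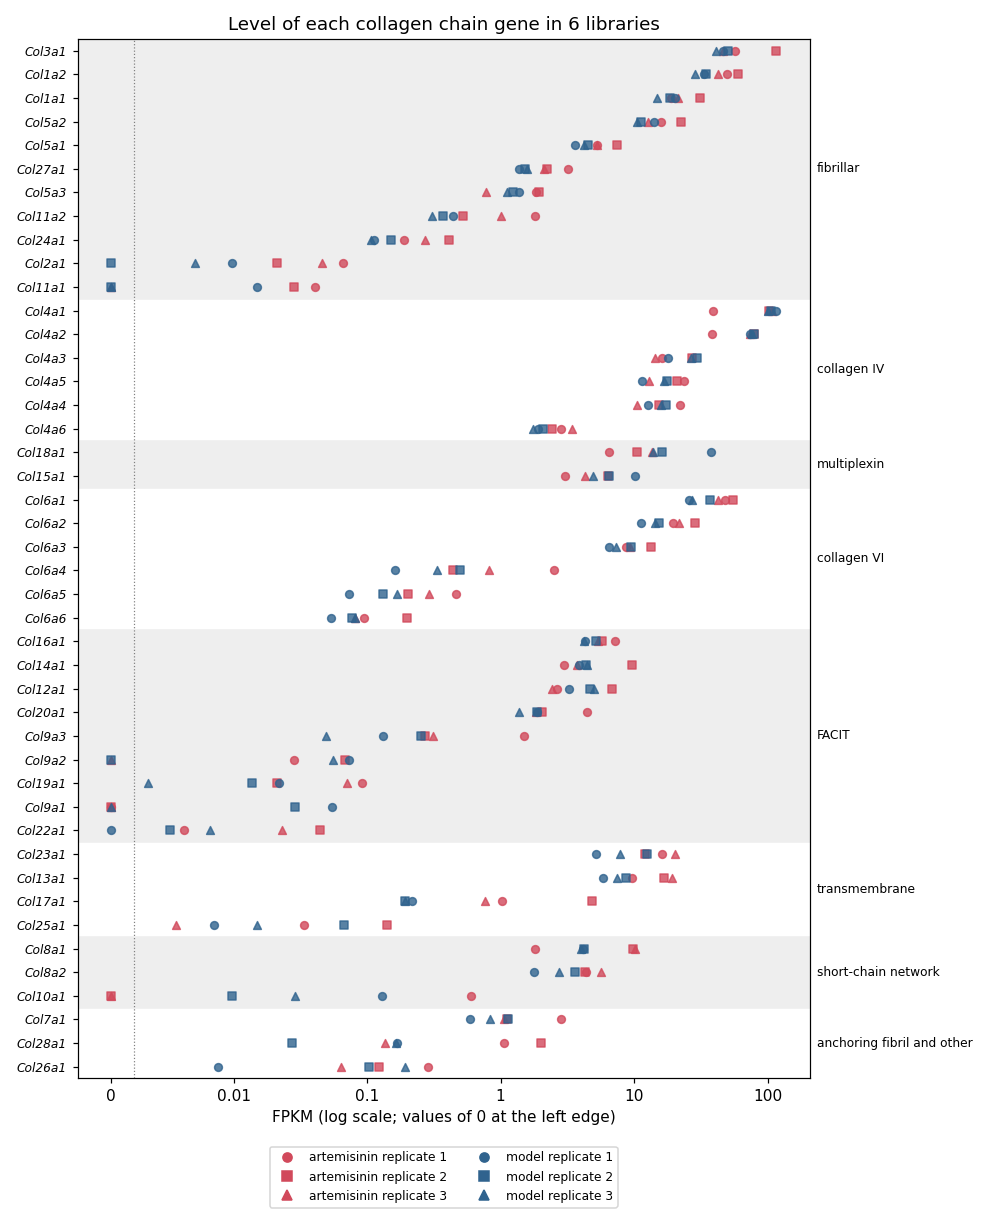
FPKM of the 44 collagen chain genes (rows, grouped by structural class) in each of 6 libraries on a log axis, with values of 0 at the left edge. Col4a1 and Col4a2 lie highest in the model libraries and artemisinin replicate 3, Col3a1 lies highest in artemisinin replicates 1 and 2, and most chains differ between libraries by less than they differ from one another.

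No collagen chain was called between artemisinin and the model. Of the 44 chains 36 passed the filter on low counts, and 0 of these passed edgeR's quasi-likelihood test at a Benjamini-Hochberg adjusted p of 0.05, where 4.47% of all genes tested were called. Without adjustment, 16 chains were higher and 1 lower at p under 0.05 (44.4% and 2.78% of the chains tested), against 13.7% and 11% of all genes. Most chains leaned towards higher values with artemisinin: 29 of 36 log2 fold changes were above 0 (80.6%), against 53.2% of all genes, and the median was 0.57 against 0.04. The artemisinin and model values did not overlap for 13 chains that were higher (36.1%) and 2 that were lower (5.56%), against 16.3% and 17.3% of all genes. DESeq2 called 9 chains higher and 1 lower, 10 of 36, where it called 15% of all genes: Col1a2, Col6a1, Col6a2, Col6a4, Col11a2, Col13a1, Col17a1, Col27a1 and Col28a1 were higher and Col18a1 was lower. The libraries were unevenly placed, as artemisinin replicate 2 had the highest level of 16 of the 36 chains, and model replicate 1 the lowest of 14.

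**Figure D2:**
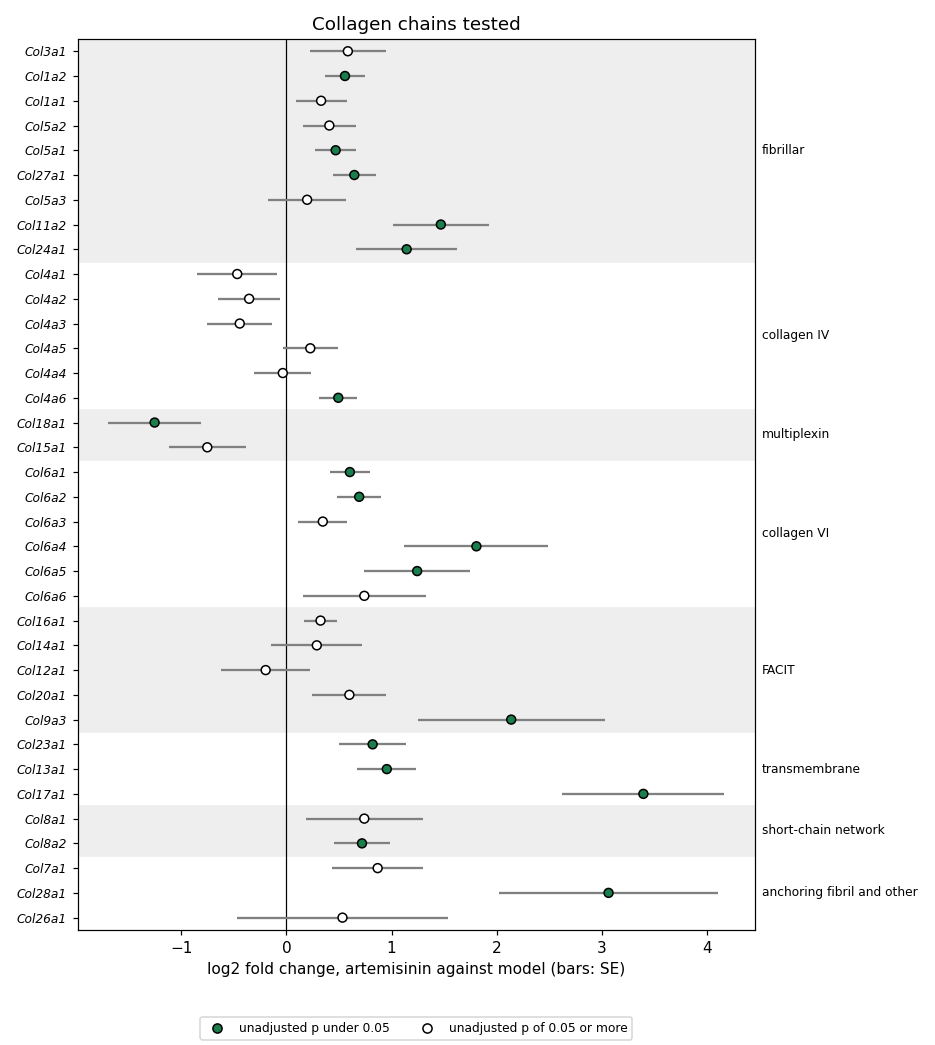
Log2 fold change of artemisinin against model for the 36 collagen chains tested (rows, by class), with standard errors as bars. Filled points had an unadjusted p under 0.05, and 29 of the 36 points lie above 0, while both multiplexins and 4 of 6 collagen IV chains lie below.

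The make-up of the collagen transcripts differed between the groups, with a smaller share of collagen IV with artemisinin. Collagen IV held 32.1%, 36.4% and 43.0% of all collagen FPKM in artemisinin replicates 1 to 3, and 49.0%, 49.8% and 53.2% in model replicates 1 to 3. These shares did not overlap. Collagen VI held 14.4% to 18.1% with artemisinin and 9.09% to 12.3% in the model, and transmembrane collagens 4.96% to 7.74% and 2.35% to 4.24%, again without overlap. Fibrillar chains held 32.0% ± 5.60 and 24.1% ± 1.24, FACIT chains 3.52% ± 0.83 and 3.14% ± 0.29, and multiplexins 2.70% ± 0.66 and 6.23% ± 3.27 (SD, n = 3 per group, artemisinin first). The fibrillar shares (25.5% to 35.6% and 22.9% to 25.3%) and the multiplexin shares (2.17% to 3.44% and 4.22% to 10.01%) did not overlap either. The shares of a library add up, so a larger share of 1 class lowers the others. The FACIT, short-chain and anchoring fibril shares overlapped. The summed FPKM of all chains was 547.7 ± 122.0 with artemisinin and 478.3 ± 30.7 in the model, and that of collagen IV was 204.6 ± 55.8 and 241.9 ± 9.58. The collagen IV sums overlapped, at 141.6, 247.95 and 224.1 in artemisinin replicates 1 to 3 and 235.3, 252.9 and 237.6 in the model. The differences between classes were not tested.

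**Figure D3:**
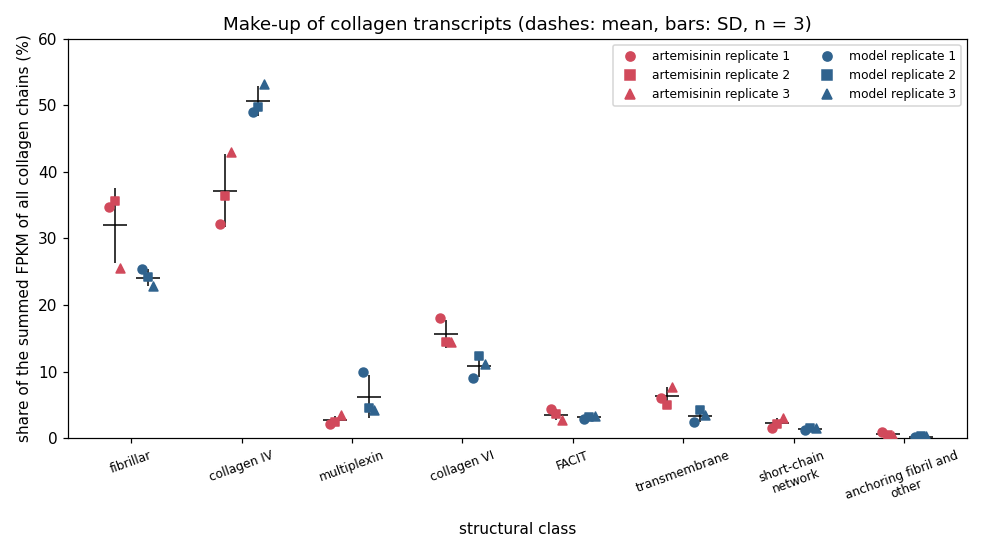
Share of the summed FPKM of all collagen chains held by each structural class, in percent, with 1 point for each library, dashes for means and bars for SD (n = 3 per group). Collagen IV lies at 32.1% to 43.0% in the artemisinin libraries and at 49.0% to 53.2% in the model.

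The fibrillar chains tested, 9 of 11, all had log2 fold changes above 0, with a median of 0.56, and none was called. Col3a1, which encodes the only chain of collagen III, had 298.1, 650.6 and 245.2 normalised CPM in artemisinin replicates 1 to 3 and 274.7, 285.1 and 236.5 in the model. The group means were 398.0 ± 220.4 and 265.4 ± 25.6, and the difference rested on artemisinin replicate 2 (log2 0.58 ± 0.36, SE; edgeR adjusted p = 0.348), since it was 0.03 without that library. Col1a2, a chain of collagen I on chromosome 6 (4505618 to 4541543), had 243.2, 318.5 and 211.9 normalised CPM with artemisinin, all above the model values of 185.3, 185.1 and 155.6. Its log2 difference was 0.56 ± 0.19 (SE; edgeR adjusted p = 0.140). The partner chain gene Col1a1 (chromosome 11, 94936224 to 94953042) had 106.8, 188.3 and 120.6 with artemisinin and 127.2, 111.6 and 92.0 in the model, and the groups overlapped (log2 0.33 ± 0.24, SE; edgeR adjusted p = 0.424, and 0.043 on the log2 scale without artemisinin replicate 2). The ratio of Col1a1 to Col1a2 FPKM lay between 0.387 and 0.605 in all 6 libraries, lowest in artemisinin replicate 1.

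The minor fibrillar chains, which regulate fibril assembly or belong to cartilage, also had higher means with artemisinin and were not called. The chains of collagen V, which co-assembles with collagen I, had log2 differences of 0.47 ± 0.20 for Col5a1, 0.41 ± 0.25 for Col5a2 and 0.20 ± 0.37 for Col5a3 (SE). Without artemisinin replicate 2 these were 0.24, 0.11 and −0.066. Further chains are named after their values were seen. Col27a1 had 22.5, 16.7 and 15.1 normalised CPM with artemisinin and 10.8, 11.6 and 12.3 in the model, without overlap (log2 0.65 ± 0.21, SE; edgeR adjusted p = 0.121). Col11a2, a chain of the cartilage collagen XI, had 13.3, 4.10 and 7.44 against 3.58, 2.90 and 2.49, also without overlap (log2 1.47 ± 0.45, SE; edgeR adjusted p = 0.113), and the log2 difference was 0.95 without artemisinin replicate 1. Col24a1 had 1.37, 3.15 and 1.98 normalised CPM with artemisinin, above the 0.911, 1.17 and 0.851 of the model. Col2a1, the chain of cartilage collagen II, had 10, 4 and 9 counts with artemisinin and 2, 0 and 1 in the model. Per count sequenced this was 8.51 times as many with artemisinin (exact binomial 95% interval 2.57 to 44.3, counting error only). Col11a1 had 8, 7 and 0 counts and 4, 0 and 0. Of the cartilage markers, Acan, Matn1, Matn3, Comp, Cnmd, Cytl1 and Chad were highest in artemisinin replicate 1. Acan, Matn1 and Cnmd had 0.998, 0.591 and 1.40 normalised CPM there. Sox9, at 38.9, and Hapln1, at 2.98, were highest in model replicate 1 and lower with artemisinin without overlap (log2 −4.43 ± 1.38 and −1.85 ± 0.81, SE). None of 5 cartilage markers tested was called (edgeR), with 0 higher and 1 lower at an unadjusted p under 0.05 (13.7% and 11% of all genes). The summed level of the 9 markers in the table was 21.1 to 64.2 with artemisinin and 23.3 to 54.5 in the model. The 54.5 was from model replicate 1, where Sox9 alone gave 38.9. Acan was at 0 in artemisinin replicates 2 and 3 and model replicates 1 and 2. The part of cartilage in these values was not tested.

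Collagen IV was the 1 class, apart from the multiplexins, with a median below 0. The median log2 fold change of its 6 chains was −0.19, with 2 above 0 and 4 below, and none was called. Col4a1 had 242.4, 682.8 and 683.0 normalised CPM in artemisinin replicates 1 to 3 and 814.7, 716.0 and 693.1 in the model. Col4a2 had 232.4, 520.4 and 453.0 and 505.8, 523.2 and 512.6. Both chains of the widespread network were thus lowest in artemisinin replicate 1 and near the model in the other libraries. The log2 differences were −0.47 ± 0.38 and −0.35 ± 0.29 (SE; edgeR adjusted p = 0.468 and 0.475), and without artemisinin replicate 1 they were −0.12 and −0.08. That library also had the lowest summed level of the 12 endothelial markers, 2232 normalised CPM. It was 2329 to 3851 in the model and 3135 and 4564 in artemisinin replicates 2 and 3. The 2329 was from model replicate 1, which had the highest Col4a1 of all libraries. Artemisinin replicate 1 was also lowest in the 8 pericyte markers, 290.9 against 445.3 to 575.2 and 654.7 and 677.9. The part of these cells in the Col4a1 and Col4a2 values was not tested.

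Of the alveolar network chains, Col4a3 had a difference near that of Col4a1, Col4a4 had one near 0 and Col4a5 leaned the other way. Col4a3 had 137.6, 247.8 and 123.1 normalised CPM with artemisinin and 170.7, 272.2 and 248.6 in the model (log2 −0.44 ± 0.31, SE; edgeR adjusted p = 0.400), and −0.82 on the log2 scale without artemisinin replicate 2. Col4a4 had 221.4, 166.4 and 105.2 against 142.9, 186.4 and 175.4, and its log2 difference of −0.03 ± 0.27 (SE) was the smallest among the chains tested. Col4a5 had 145.6, 138.8 and 79.8 against 79.4, 118.1 and 113.5 (log2 0.23 ± 0.26, SE; edgeR adjusted p = 0.614). All 3 chains overlapped between the groups. Among 10 markers of alveolar type 1 cells, whose summed level was 3908 to 7048 normalised CPM with artemisinin and 4299 to 5862 in the model, 0 were called. Col4a6 had 18.1, 16.7 and 22.0 normalised CPM with artemisinin, all above the 13.6, 14.4 and 12.4 of the model (log2 0.49 ± 0.18, SE; edgeR adjusted p = 0.155).

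Pairs of collagen IV genes with neighbouring starts differed in how closely they kept their ratio. The ratio of Col4a1 to Col4a2 FPKM, the pair with overlapping windows printed above, was 1.02, 1.28 and 1.47 in artemisinin replicates 1 to 3 and 1.57, 1.33 and 1.32 in the model, so the highest was 1.54 times the lowest. For Col4a5 to Col4a6, whose windows do not overlap, it was 8.29, 8.57 and 3.75 and 6.04, 8.46 and 9.47, a span of 2.52 times. Col4a3 to Col4a4 was lowest in artemisinin replicate 1 at 0.735 and highest in replicate 2 of that group at 1.76. This was a span of 2.40 times. Narrow spans were not limited to genes with neighbouring starts. On different chromosomes, Col6a1 to Col6a3 spanned 1.497 times, Col4a5 to Col4a4 1.501 times and Col1a1 to Col1a2 1.563 times. The other pairs compared on different chromosomes spanned 1.635 to 5.93 times. Whether neighbouring starts affect the ratios was not tested. Between chains of different networks, the ratio of Col4a3 to Col4a1 spanned 3.15 times, and that of Col4a4 to Col4a1 spanned 5.93 times, with both extremes among the artemisinin libraries (0.0960 in replicate 3 and 0.569 in replicate 1). Over 14 pairs of chains, only Col4a5 to Col4a4 and Col6a1 to Col6a3 had ratios that did not overlap between the groups. Each reached an exact two-sided permutation p of 0.1, the smallest that 3 against 3 allows, and 0.7 with Benjamini-Hochberg adjustment over the 14 pairs.

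**Figure D4:**
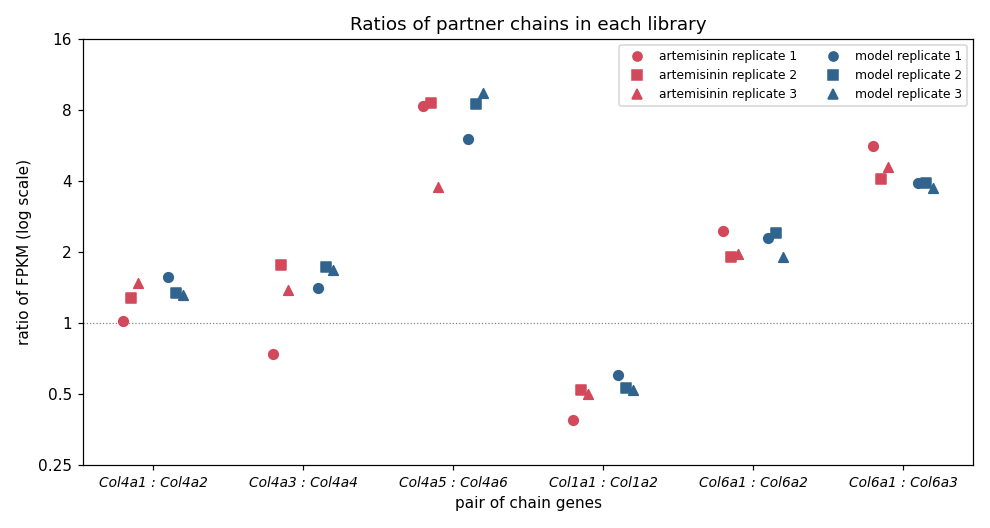
Ratio of FPKM of 6 pairs of partner chains in each library, on a log axis, artemisinin left and model right in each pair. Col6a1 to Col6a2 varies least, from 1.90 to 2.46, and Col4a5 to Col4a6 varies most, from 3.75 to 9.47.

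Both multiplexins were lower with artemisinin, and neither was called. Col18a1, whose C-terminal fragment is endostatin (chromosome 10, 77052178 to 77166530), had 44.4, 76.9 and 93.2 normalised CPM in artemisinin replicates 1 to 3 and 287.8, 119.3 and 104.4 in the model. The groups did not overlap, but model replicate 1 was far above the other libraries (log2 −1.25 ± 0.44, SE; edgeR adjusted p = 0.145), and without it the log2 difference was −0.65. Col15a1, a collagen of vascular basement membrane zones, had 15.2, 34.2 and 21.6 with artemisinin and 57.4, 34.9 and 27.4 in the model, with overlap (log2 −0.75 ± 0.36, SE; edgeR adjusted p = 0.248). It too was highest in model replicate 1, and without that library its log2 difference was −0.40.

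All 6 collagen VI chains had log2 fold changes above 0, with a median of 0.72. Col6a1, on chromosome 10 at 76708792 to 76726044, had 181.9, 220.1 and 161.1 normalised CPM with artemisinin and 107.5, 150.1 and 113.0 in the model. Its neighbour Col6a2, at 76595756 to 76623630, had 112.0, 175.3 and 124.6 and 71.2, 94.2 and 89.6. For both chains every artemisinin library was above every model library, and the log2 differences were 0.60 ± 0.19 and 0.69 ± 0.21 (SE; edgeR adjusted p = 0.120 and 0.106). Col6a3, the third chain of the common collagen VI molecule, had 88.6, 147.9 and 95.5 and 74.5, 104.3 and 82.3, with overlap (log2 0.35 ± 0.23, SE; edgeR adjusted p = 0.388), and 0.08 without artemisinin replicate 2. The ratio of Col6a1 to Col6a2 FPKM spanned 1.29 times over the 6 libraries, the narrowest of the 14 pairs. The ratio of Col6a1 to Col6a3 was 4.75 ± 0.782 with artemisinin and 3.87 ± 0.109 in the model (SD, n = 3 per group).

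The other collagen VI chains, which can replace alpha 3, were much less abundant, with mean FPKM of 1.26 ± 1.11 and 0.332 ± 0.169 for Col6a4 (artemisinin and model, SD, n = 3). Col6a4 had 18.6, 3.47 and 6.10 normalised CPM with artemisinin and 1.34, 3.98 and 2.71 in the model, so artemisinin replicate 1 was high and the groups overlapped. Its log2 difference of 1.81 ± 0.68 (SE; edgeR adjusted p = 0.166) was 0.84 without that library. Col6a5 had 4.14, 1.95 and 2.60 and 0.729, 1.27 and 1.67, without overlap. Col6a6 was at 0.573 to 1.51 with artemisinin and 0.425 to 0.630 in the model (log2 0.74, and 0.17 without artemisinin replicate 2). Col6a4, Col6a5 and Col6a6 are neighbouring paralogs on chromosome 9, and reads of such genes may be shared in the counting.

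Of 9 FACIT chains 5 were tested, with a median log2 fold change of 0.32 and no call. Col16a1, a FACIT of fibrils and fibrillin microfibrils, had 43.3, 36.8 and 32.5 normalised CPM with artemisinin and 28.6, 33.2 and 28.1 in the model (log2 0.32 ± 0.16, SE; edgeR adjusted p = 0.251). Col14a1, which binds collagen I fibrils, had 20.1, 68.8 and 25.2 and 29.2, 31.4 and 32.8. Col12a1, a FACIT of connective tissue under load, had 30.6, 84.3 and 28.0 and 42.0, 58.3 and 63.5. In both, artemisinin replicate 2 was the highest of the 6 libraries and the other 2 artemisinin libraries were below every model library. The log2 differences of 0.29 ± 0.43 and −0.20 ± 0.43 (SE) became −0.46 and −0.90 without artemisinin replicate 2. Col12a1 was then called lower (edgeR adjusted p = 0.0490), where that fit called 8.96% of all genes. This library also stood apart in skeletal muscle and keratinocyte markers, whose part in the Col12a1 and Col14a1 values was not tested.

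The remaining FACIT chains were low. Col20a1 had 26.7, 13.2 and 11.05 normalised CPM with artemisinin and 12.4, 12.1 and 9.04 in the model (log2 0.60, and 0.11 without artemisinin replicate 1). Col9a3, a chain of cartilage collagen IX, had 4.40, 0.851 and 0.916 against 0.425, 0.803 and 0.158 (log2 2.14, and 0.93 without artemisinin replicate 1). Of its 223 counts, 119 came from artemisinin replicate 1, and its exons overlap those of Tcfl5 on the opposite strand. Its partner Col9a2 had 2, 6 and 0 counts with artemisinin and 7, 0 and 5 in the model, and Col9a1 had 0 in all 3 artemisinin libraries against 8, 4 and 0. A count of 0 in the smallest library allows up to 0.117 CPM. Col19a1 had 31, 9 and 31 counts and 10, 6 and 1, and Col22a1, a collagen of muscle tendon junctions, had 1, 13 and 7 and 0, 1 and 2.

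The median of the transmembrane collagens was 0.95, and all 3 chains tested were above 0. Col13a1, found at cell adhesion sites and neuromuscular junctions (chromosome 10, 61838234 to 61979206), had 58.3, 109.1 and 118.3 normalised CPM with artemisinin and 39.96, 57.5 and 49.95 in the model. The groups did not overlap, and the log2 difference was 0.95 ± 0.28 (SE; edgeR adjusted p = 0.1005). It was called without artemisinin replicate 1 (log2 1.21; edgeR adjusted p = 0.0408). Col23a1 had 91.3, 72.8 and 114.7 with artemisinin and 32.6, 76.1 and 49.3 in the model, where model replicate 2 reached into the artemisinin range (log2 0.82 ± 0.32, SE; edgeR adjusted p = 0.170). Col25a1 had 7, 37 and 1 counts and 2, 18 and 4.

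Col17a1, the collagen of hemidesmosomes in stratified and basal epithelium, had the smallest p of all collagen chains. It stood at 5.39, 27.1 and 3.98 normalised CPM in artemisinin replicates 1 to 3 and at 1.28, 1.08 and 1.10 in the model. Every artemisinin library was above the model, and replicate 2 was highest. The difference of 10.5-fold (log2 3.39 ± 0.77, SE) missed the threshold narrowly (edgeR adjusted p = 0.0543). Without artemisinin replicate 2, where Krt5 had 151.9 and Krt14 43.3 normalised CPM, the log2 difference was 2.02 and Col17a1 was called (edgeR adjusted p = 0.0327, where 8.96% of all genes were called). Of the basal cell markers, Trp63, Krt15 and Krt14 were above the model in all 3 artemisinin libraries. Krt14, which did not pass the filter on low counts, had 5, 1374 and 4 counts there and 0 in each model library. Trp63 had 1.66, 23.2 and 0.458 normalised CPM in artemisinin replicates 1 to 3 and 0.213 to 0.347 in the model, and Krt15 had 1.11, 76.8 and 0.601 and at most 0.185, both without overlap. Krt5 had 1.92 in artemisinin replicate 1, 0.0286 in replicate 3 and at most 0.185 in the model, and Dsg3 was at 0 outside artemisinin replicate 2. The sum over the 8 keratinocyte and basal cell markers was 11.4 and 5.21 in artemisinin replicates 1 and 3 and 4.35 to 14.8 in the model, where Ivl alone had up to 12.1. Of 5 markers tested 0 were called (edgeR), with 3 higher and 1 lower at an unadjusted p under 0.05 (13.7% and 11% of all genes). The part of basal cells in the Col17a1 values was not tested. Col17a1 was also called without artemisinin replicate 3 (edgeR adjusted p = 0.0420), with scaling by library totals (0.0473) or upper-quartile factors (0.04996), and by DESeq2 (adjusted p = 3.18e-05). It was not called in the other 10 settings, where the adjusted p lay between 0.0504 and 0.213.

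**Figure D5:**
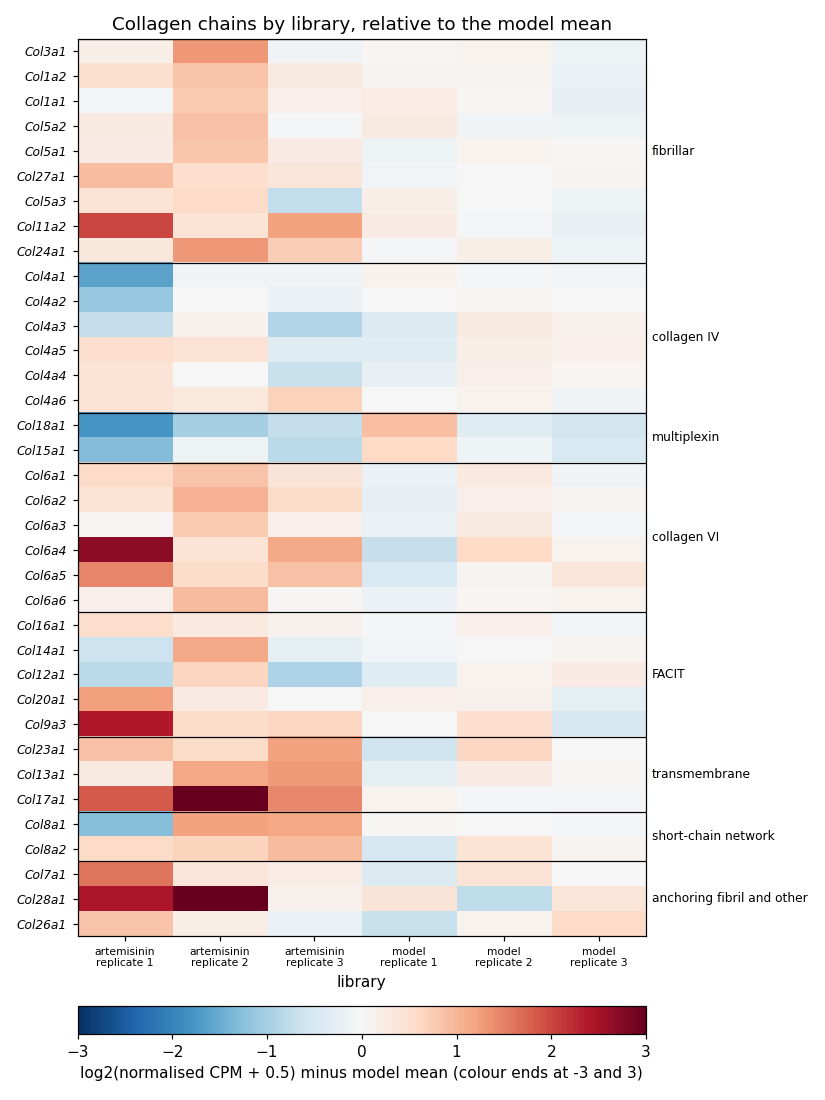
Each cell shows log2(normalised CPM + 0.5) of 1 tested collagen chain (rows, by class) in 1 library (columns), minus the mean of the 3 model libraries, with colours ending at −3 and 3. Artemisinin replicate 1 is low in Col4a1, Col4a2 and Col8a1, artemisinin replicate 2 is high in Col17a1, Col3a1 and Col14a1, and model replicate 1 is high in Col18a1 and Col15a1.

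The short-chain network collagens, of vessel walls and other specialised matrix, varied with the library. Col8a1 had 8.68, 51.2 and 49.0 normalised CPM with artemisinin around narrow model values of 22.2, 21.8 and 21.2. Artemisinin replicate 1 was thus the lowest and replicates 2 and 3 the highest of all libraries. The log2 difference of 0.74 ± 0.56 (SE; edgeR adjusted p = 0.436) became 1.20 and was called without artemisinin replicate 1 (edgeR adjusted p = 0.0209). Col8a2 had 18.3, 19.6 and 23.8 and 8.41, 16.3 and 12.8, without overlap (log2 0.72 ± 0.27, SE; edgeR adjusted p = 0.159). Col10a1, the collagen of hypertrophic cartilage, had 48, 0 and 0 counts with artemisinin and 14, 1 and 3 in the model, and 18 of its exonic bases overlap Nt5dc1.

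Col7a1, the anchoring fibril collagen, had 24.98, 10.4 and 9.25 normalised CPM with artemisinin and 5.80, 10.6 and 8.005 in the model, with artemisinin replicate 1 highest (log2 0.87 ± 0.43, SE; edgeR adjusted p = 0.257, and 0.27 on the log2 scale without that library). Col28a1, a collagen of peripheral nerve, had 5.51, 11.2 and 0.716 and 0.972, 0.154 and 0.945. Artemisinin replicates 1 and 2 were high and replicate 3 lay within the model, so the large log2 difference of 3.06 ± 1.04 (SE; edgeR adjusted p = 0.135) was not a uniform one. Of 9 Schwann cell markers, 1 rose (Cdh19) and 1 fell (Mal), where 4.47% of all genes were called (edgeR). Sox10 was at 1.51, 1.04 and 0.286 against 0.0607, 0.154 and 0 normalised CPM. The summed level of the 9 markers was 169.8 to 314.1 with artemisinin and 252.8 to 314.5 in the model. The part of Schwann cells in the Col28a1 values was not tested. Col26a1 had 28, 15 and 8 counts and 1, 13 and 24.

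Genes for the folding and modification of procollagen (enzymes, chaperones and a transcription factor among them) showed no common direction. Of 20 genes, all tested, 1 was lower and 0 higher (edgeR adjusted p under 0.05), where 4.47% of all genes were called. At an unadjusted p under 0.05, 1 was higher and 4 were lower, against 13.7% and 11% of all genes. The log2 fold change was above 0 for 11 and below 0 for 9, with a median of 0.05 beside 0.04 over all genes. The called gene was Creb3l1, a transcription factor that drives collagen secretion genes, which fell (log2 −1.39 ± 0.20, SE; edgeR adjusted p = 0.0184). It had 22.4, 18.9 and 16.1 normalised CPM in artemisinin replicates 1 to 3 and 61.2, 47.2 and 42.5 in the model, without overlap. The collagen chaperone gene Serpinh1 stood at 142.4 to 216.4 normalised CPM with artemisinin and 164.8 to 217.5 in the model. The prolyl 4-hydroxylase genes P4ha1 and P4hb had log2 differences of −0.51 ± 0.21 and −0.50 ± 0.21 (SE) and were not called (edgeR adjusted p = 0.186 and 0.189). In the fits without model replicate 1, 2 or 3 Creb3l1 was not called (edgeR adjusted p = 0.0872, 0.0550 and 0.0686).

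Genes for processing and cross-linking collagen had a median of 0.59. Of 12 tested, 1 was higher and 0 lower (edgeR adjusted p under 0.05), where 4.47% of all genes were called. At an unadjusted p under 0.05, 5 were higher and 0 lower, against 13.7% and 11% of all genes. Lox, which encodes lysyl oxidase, the enzyme that starts the cross-links of collagen and elastin, rose 2.94-fold. It had 129.2, 129.0 and 173.9 normalised CPM with artemisinin and 45.6, 58.3 and 43.1 in the model (log2 1.55 ± 0.19, SE; edgeR adjusted p = 0.0130), and was not called without model replicate 1 or 3 (0.0856 and 0.0768). Pcolce, an enhancer of procollagen C-proteinase, Loxl1 and Loxl2 did not overlap between the groups, with log2 differences of 0.62 ± 0.15, 0.64 ± 0.19 and 0.88 ± 0.28 (SE), and were not called (edgeR adjusted p = 0.0702, 0.107 and 0.124). Bmp1, the procollagen C-proteinase gene, had a log2 difference of −0.60 ± 0.28 (SE; edgeR adjusted p = 0.230).

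Of the partners of collagen outside the cell, 1 gene was called. None of 9 proteoglycans and related fibril-binding proteins tested was called, with a median of 0.47, and at an unadjusted p under 0.05 1 was higher and 1 lower (13.7% and 11% of all genes). Bgn and Ogn, the most abundant of them, had 619.2 ± 170.1 and 527.2 ± 179.3 normalised CPM with artemisinin and 475.6 ± 28.8 and 367.9 ± 119.1 in the model. Among 10 collagen receptors tested none was called (median 0.15), with 3 higher and 1 lower at an unadjusted p under 0.05, where 13.7% and 11% of all genes were. Itgb1, the shared beta chain of collagen-binding integrins, had 896.7 ± 280.4 and 963.5 ± 39.1. Itga1, the next most abundant, which encodes a collagen-binding alpha chain, had 29.5, 91.2 and 174.8 with artemisinin and 99.7, 152.2 and 171.1 in the model (log2 −0.52 ± 0.56, SE; edgeR adjusted p = 0.584). Mrc2, an endocytic collagen receptor named after its values were seen, had 106.1 ± 3.60 and 69.6 ± 11.6 (edgeR adjusted p = 0.0733). Of 16 genes that share the basement membrane with collagen IV, 1 was higher and 0 lower, where 4.47% of all genes were called. The median was −0.03, and at an unadjusted p under 0.05 2 were higher and 1 lower. Lamc3, the laminin gamma 3 gene, rose (log2 1.41 ± 0.29, SE; edgeR adjusted p = 0.0447). Its normalised CPM was 37.4, 30.7 and 53.6 with artemisinin, above the 10.2, 16.6 and 19.0 of the model libraries. It lost its call in each fit with 1 library left out except the one without artemisinin replicate 2.

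Markers of cells that make collagen gave the following values. Of 12 fibroblast markers, 1 (Meox2) rose and 0 fell, where 4.47% of all genes were called (edgeR). Their median was 0.63, with 12 above 0 and 0 below, where 53.2% of all genes were above 0. Without overlap 5 were higher and 0 lower (16.3% and 17.3% of all genes). The summed level was 2395 to 3523 normalised CPM with artemisinin and 1440 to 2454 in the model. Inmt made up the largest part of it, at 1215 to 1791 and 549.2 to 1213. Of 8 pericyte markers 1 (Cspg4) rose, with sums of 290.9 to 677.9 and 445.3 to 575.2. All 9 smooth muscle markers rose, as given above, and no marker of these 3 lists was at 0 in any library. The part of these cells in the levels of the interstitial collagens was not tested.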

How the data were processed

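The comparison was of 6 mouse libraries, 3 of artemisinin treatment and 3 of the untreated model. Per the labels' protocols total RNA was used for stranded, polyA-selected libraries, and per the submitters' processing notes the build was GRCm38 (mm10). For the aligner, counter, annotation and strand setting: not given in the sources used here. Exons of 13 chains overlap another gene, and of 4 a gene of the table, and such reads may not have been told apart. The authors deposited raw read counts per gene and FPKM, the same counts per library total and gene length (largest relative gap 5.3e-07 over 15205 genes), which makes them a rescaling of the counts.

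All genes were tested from the counts with glmQLFit (robust) and glmQLFTest of edgeR 4.0.16 (R version 4.3.3), with group as the only term, TMM scaling and filterByExpr, after which 15242 genes remained. Calls have a Benjamini-Hochberg adjusted p under 0.05. SE is the log2 fold change over the square root of F. Alternatives used DESeq2 1.42.0, limma 3.58.1 with voom or on log2(FPKM + 0.1 or + 1) for genes of mean FPKM at least 0.5, other scaling and filters, the replicate number as a block, and each library left out. The fits were tested on simulated data. The labels do not say that libraries come from separate animals beyond calling them mice, so p-values measure the spread between these libraries, which may be technical. Replicate numbers did not pair the libraries across groups. With 3 against 3 an exact permutation test cannot go below 0.1.

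Chains were grouped by structure. Named in full were called chains (there were none), the 2 chains of highest mean FPKM in each class and partner chains, and in each pathway list the called genes or the 2 most abundant. Other chains and genes named, Col17a1 among them, were chosen after their values were seen. Club and ciliated cell markers were added after seeing the data. The members and lists were chosen with earlier results of these data known. Of the list entries 3 were not matched to the table. Promoters and coordinates are from RefSeq, GRCm38.p6, and exon overlaps from GENCODE M21.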

Additional observations from a re-analysis of the deposited data

How the results depend on the processing

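Up to 15 alternative settings were run for each chain, with 12 to 14 for Col6a5, Col6a6, Col9a3, Col24a1, Col26a1 and Col28a1, which other filters left out. In the settings run, 31 of the 36 chains showed no reversed sign and 5 did. The count of chains called was 0 in the reported fit. It was 9 higher and 1 lower with DESeq2, which called 1234 genes higher and 1052 lower overall and 9 and 2 pathway genes. It was 1 higher with library totals only and 1 with upper-quartile factors, and with library totals the split over all genes was 464 higher and 319 lower beside 331 and 351, as the median of all genes moved from 0.04 to 0.15. On log2(FPKM + 1) limma called 1 pathway gene higher. The replicate numbers did not pair the libraries (r between same-numbered libraries 0.0025, −0.138 and 0.0419), and with the replicate block 65 genes were higher and 63 lower, with 1 pathway gene higher and 0 chains. Leaving out 1 library gave 0 to 2 chains higher and 0 to 1 lower, 6 to 670 genes higher and 11 to 713 lower over all genes, and 0 to 3 pathway genes higher and 0 to 5 lower. The fewest genes were called without model replicate 1 and the most without artemisinin replicate 2, with fewer samples in each of these fits. Class medians then ranged from 0.24 to 0.64 for fibrillar, 0.47 to 0.83 for collagen VI and 0.69 to 1.23 for transmembrane chains. Col4a4, at −0.03, was 0.072 with library totals, 0.044 with upper-quartile factors, 0.012 by limma on log2(FPKM + 0.1) and 0.014 on log2(FPKM + 1), and −0.31 to 0.17 with 1 library left out. With 1 library left out Col12a1 ranged from −0.90 to 0.039, Col14a1 from −0.46 to 0.59, Col26a1 from −0.18 to 1.39 and Col5a3 from −0.066 to 0.48. The cause was not tested. At this depth a count of 0 allows a level of up to 0.0863 to 0.117 CPM.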
